A study of Homo sapiens with 18 samples.

Results

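The endoplasmic reticulum unfolded protein genes described here are 10 genes chosen by name, ATF6, ERN1, XBP1, HSPA5, HSP90B1, HYOU1, DNAJB9, CALR, PDIA4 and HERPUD1, out of 19974 protein-coding genes on chromosomes 1 to 22 and X. A MAX peak was assigned to a gene when its summit lay inside the gene or within 2500 bp of either outer end (RefSeq, GRCh38.p14). MAX was mapped by chromatin immunoprecipitation and sequencing in U2OS, a human osteosarcoma line whose own MYC gene had been knocked out. The cells carried a doxycycline-inducible copy of MYC: wild type (WT), or a mutant that the labels name 3A or 7A. Each form was given 1 µg/ml doxycycline for 24 h or PBS for the same time, all groups lacked endogenous MYC, and mouse NIH3T3 cells, at 10%, were added to every group to serve as an outside reference. There were 18 libraries per the labels, of which 12 were MAX immunoprecipitations (6 groups of 2 biological replicates) and 6 were inputs. Whether each line is 1 clone is not stated in the sources used here. The values below come from 3 peak lists, 1 for each MYC form. The peak names in each list join the form with a plus and the form with a minus sign, and no sample is named. The sources used here do not say whether this means both treatments pooled or doxycycline set against PBS. Each value therefore stands for 1 list, has no replicate error, and a difference between MYC forms cannot be tested with them.

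MAX is the obligate partner of MYC. The pair binds the E-box, whose canonical form is CACGTG, and MAX also binds there with other partners, so a MAX peak does not by itself name the partner. The unfolded protein response adjusts the folding capacity of the endoplasmic reticulum when unfolded proteins collect there, which matters in cells that make and secrete much protein, such as cells of the bone lineage. Its sensors include ATF6, a membrane-held transcription factor that is cut free by proteases of the Golgi, and the kinase and RNase encoded by ERN1, which splices XBP1 mRNA so that the active XBP1 transcription factor is made. ATF6 and XBP1 act on promoters through the endoplasmic reticulum stress element (ERSE), in which a CCAAT box bound by NF-Y and a CCACG part stand at a fixed spacing. Their targets include the chaperones HSPA5 (BiP), HSP90B1 and HYOU1, the HSPA5 cochaperone DNAJB9, the lectin chaperone CALR, the disulfide isomerase PDIA4, and HERPUD1, which serves the removal of misfolded proteins.

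The promoter sequences carried both kinds of element. All 10 members had a window in the RefSeq promoter table (GRCh38.p14), running from 250 bases before to 50 bases after a start of transcription, 300 in all; XBP1 and PDIA4 had a second window. Printed below are the 7 members with a canonical E-box, an ERSE or an ERSE-II, as the bases before the start, 5′ to 3′ on the gene's strand, because the position of the MAX summit can be read against them. Capitals mark every match, on either strand, to the canonical E-box, to an E-box variant, or to a stress element. The variants searched were CACGCG first, then CATGTG as another, and CACGAG as the last. The stress elements were ERSE (CCAAT, then any 9 bases, then CCACG), ERSE-II (ATTGG, then any 1 base, then CCACG) and the core of the unfolded protein response element, UPRE (TGACGTG). The first 3 have a canonical E-box: HERPUD1 (chr16:56931892-56932141, plus strand), DNAJB9 (chr7:108569769-108569873, plus strand, shown only from the edge of its neighbour THAP5) and HSP90B1 (chr12:103930160-103930409, plus strand).
HERPUD1: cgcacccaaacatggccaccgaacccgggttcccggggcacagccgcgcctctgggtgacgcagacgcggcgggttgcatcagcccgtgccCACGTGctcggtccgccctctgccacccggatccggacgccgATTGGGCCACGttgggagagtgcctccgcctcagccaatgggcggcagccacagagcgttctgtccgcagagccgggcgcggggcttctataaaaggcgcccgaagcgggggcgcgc
DNAJB9: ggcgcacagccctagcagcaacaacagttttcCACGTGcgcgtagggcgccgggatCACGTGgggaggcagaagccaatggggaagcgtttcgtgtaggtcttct
HSP90B1: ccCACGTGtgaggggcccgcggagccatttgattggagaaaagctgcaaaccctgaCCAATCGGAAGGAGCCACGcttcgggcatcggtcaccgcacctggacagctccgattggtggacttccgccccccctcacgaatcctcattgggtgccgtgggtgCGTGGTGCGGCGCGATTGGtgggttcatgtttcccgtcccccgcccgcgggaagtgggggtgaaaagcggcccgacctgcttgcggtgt
The other 4 have a stress element and no canonical E-box: HSPA5 (chr9:125241344-125241593, minus strand), XBP1 (chr22:28800570-28800819, minus strand), CALR (chr19:12938359-12938608, plus strand) and HYOU1 (chr11:119057206-119057455, minus strand).
HSPA5: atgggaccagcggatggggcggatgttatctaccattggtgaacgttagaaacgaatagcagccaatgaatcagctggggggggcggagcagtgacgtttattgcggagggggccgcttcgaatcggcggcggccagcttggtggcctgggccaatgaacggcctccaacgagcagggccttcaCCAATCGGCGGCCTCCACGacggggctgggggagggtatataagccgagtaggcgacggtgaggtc
XBP1: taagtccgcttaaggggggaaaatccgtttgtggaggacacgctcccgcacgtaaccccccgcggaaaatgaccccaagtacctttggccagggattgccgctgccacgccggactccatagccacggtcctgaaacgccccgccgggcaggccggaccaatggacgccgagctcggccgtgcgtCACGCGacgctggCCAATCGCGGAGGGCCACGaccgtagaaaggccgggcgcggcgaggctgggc
CALR: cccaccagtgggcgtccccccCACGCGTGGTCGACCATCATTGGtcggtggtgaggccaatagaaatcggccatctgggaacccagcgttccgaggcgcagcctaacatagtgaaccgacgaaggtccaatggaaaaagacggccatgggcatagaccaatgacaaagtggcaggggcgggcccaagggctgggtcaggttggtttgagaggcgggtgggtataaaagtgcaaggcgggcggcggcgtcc
HYOU1: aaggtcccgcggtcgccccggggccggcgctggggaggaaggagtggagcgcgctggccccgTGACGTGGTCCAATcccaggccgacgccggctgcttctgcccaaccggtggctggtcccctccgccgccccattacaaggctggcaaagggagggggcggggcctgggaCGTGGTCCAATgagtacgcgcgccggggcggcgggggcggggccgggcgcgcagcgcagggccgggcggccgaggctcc

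The canonical E-box was present in 3 of the 10 members, HERPUD1, DNAJB9 (in 2 copies) and HSP90B1, against 10.9% of the 15813 protein-coding genes in the table. By window it was found in 11.1% of the protein-coding windows whose start lay under a WT peak and in 5.42% of the others. CACGCG was found in XBP1 and CALR (18.1% of genes) and CACGAG in ATF6 (9.63%), while no member held CATGTG (11.5%). Any of the 4 E-boxes was found in 6 of 10 members, against 40.1% of genes. The stress elements were much rarer over all genes: ERSE in 4 members (XBP1, HSPA5, CALR, and HSP90B1 in 2 copies) against 0.133% of genes, and ERSE-II in HERPUD1 and, in 2 copies, HYOU1, against 0.0949%. These genes were chosen as genes of the unfolded protein response, which acts through ERSE, so their share is a description. ERSE or ERSE-II was found in 6 of them, and ATF6, ERN1, DNAJB9 and PDIA4 held neither. The UPRE core was found in HYOU1 (2.75% of genes). In CALR the 2 CACGCG matches overlap each other and the ERSE, and in HYOU1 the UPRE core overlaps an ERSE-II. A match shows only that the letters are there. The windows of ERN1 and PDIA4 held none of these motifs, and their summits lay outside these windows in every list.

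Every member had a MAX peak in every list. All 10 had a peak by the 2500 bp rule in WT, 3A and 7A, where 70.8%, 67.7% and 66.7% of protein-coding genes did, and 65.7% did in all 3 lists. A peak also lay over a start of transcription in all 10 members in each list, against 57.9% of the protein-coding genes with a promoter window in WT, 54.7% in 3A and 55.4% in 7A. Most members had a single broad site over the start. The WT list held 14 member peaks and the mutant lists 12 each, at 14 sites in all: 10 over a start, a second site at each of ATF6, ERN1, XBP1 and CALR. Of the 14 WT peaks, 12 were overlapped in 3A (background 74.0% of all WT peaks) and the same 12 in 7A (69.9%). The remaining 2, an upstream peak of XBP1 and a peak inside ERN1, stood in the WT list alone (22.9% of all WT peaks).

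**Figure D1:**
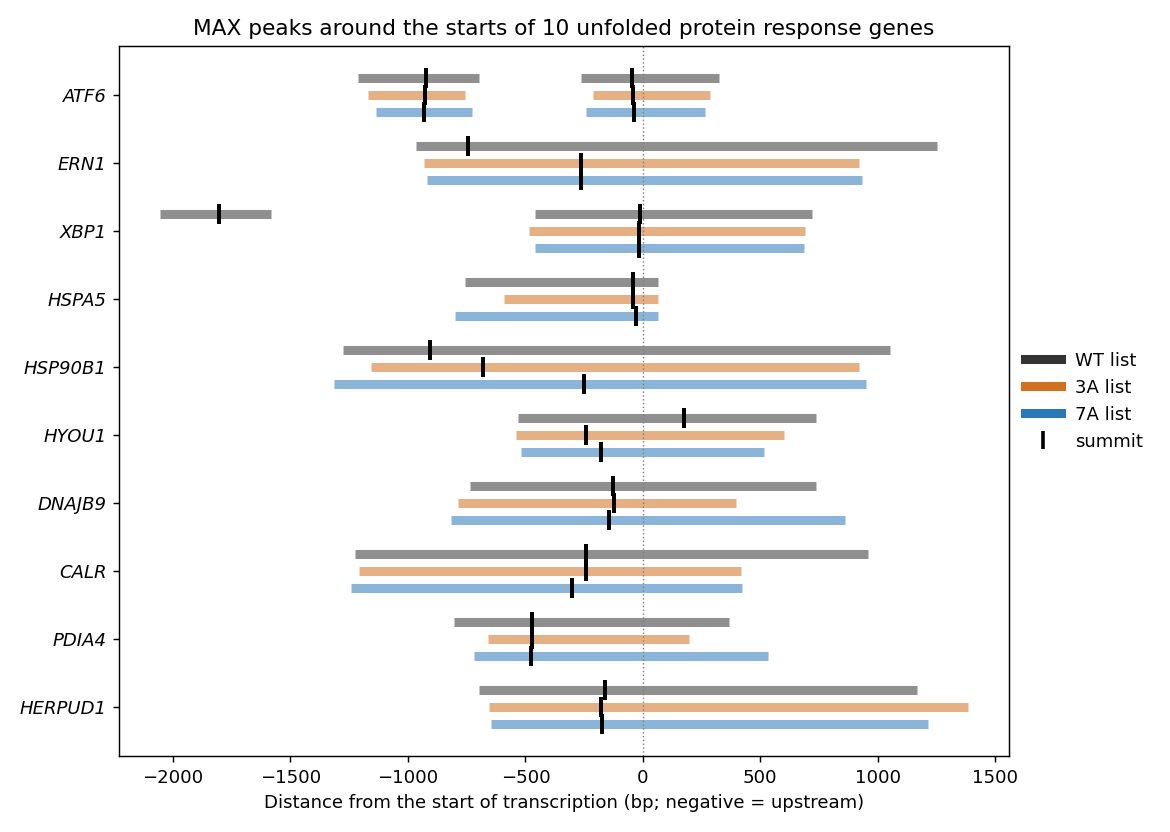
Extent (bars) and summit (black ticks) of MAX peaks in the WT, 3A and 7A lists, by distance in bp from the start of transcription. A site over the start is present at all 10 genes in all lists; the WT peak inside ERN1 lies outside the plotted range, the second CALR site is not drawn, and XBP1 has an upstream peak in WT alone.

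Fold enrichment, the peak caller's linear ratio of treatment to local background at the summit, is given here only beside its rank. Which libraries were treatment and which, if any, were control is not stated. If doxycycline was set against PBS, every fold, rank and coverage below is a measure of that contrast and not of MAX over input. Rank 1 is the highest fold enrichment of a list, and ranks are written as a percent of the list's length (34622 peaks in WT, 27294 in 3A, 25159 in 7A), so that a small percent is a strong peak. The strongest peak of each member had a median rank of 12.1% in WT (1.06 to 65.5%), 14.5% in 3A (3.26 to 90.4%) and 19.2% in 7A (5.95 to 89.6%). Over all protein-coding genes with a peak by the same rule these medians were 25.3%, 29.0% and 31.5%. The strongest peaks of ATF6 and CALR were their second sites in every list. For the member sites over a start alone, the median ranks were 24.9% (WT), 21.9% (3A) and 23.0% (7A). By this median the WT list did not stand ahead of the mutant lists. Of these sites, 5 ranked highest in WT, 4 in 3A and 1 in 7A. Ranked by −log10 q, the medians were 17.8% (WT), 23.2% (3A) and 25.8% (7A), so the WT list then stood ahead. No such median over the start sites of all genes is given here. A strongest peak within the first 10% of the list was found for 4 members in WT, 3 in 3A and 4 in 7A, against 23.1%, 20.0% and 18.1% of genes with a peak. In WT these were PDIA4 and DNAJB9, and, through their second sites and not those over their starts, ATF6 and CALR. The member with the strongest WT peak by fold, PDIA4, and HSPA5, whose only peak was the lowest-ranking strongest peak in every list, thus lay far apart. The treatment and background coverage behind each fold were solved from the authors' fold enrichment and −log10 p. They are on each list's own scale and differ between lists in their medians (treatment 133.7 in WT, 99.4 in 3A and 138 in 7A), so they show the depth behind a peak within its list.

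**Figure D2:**
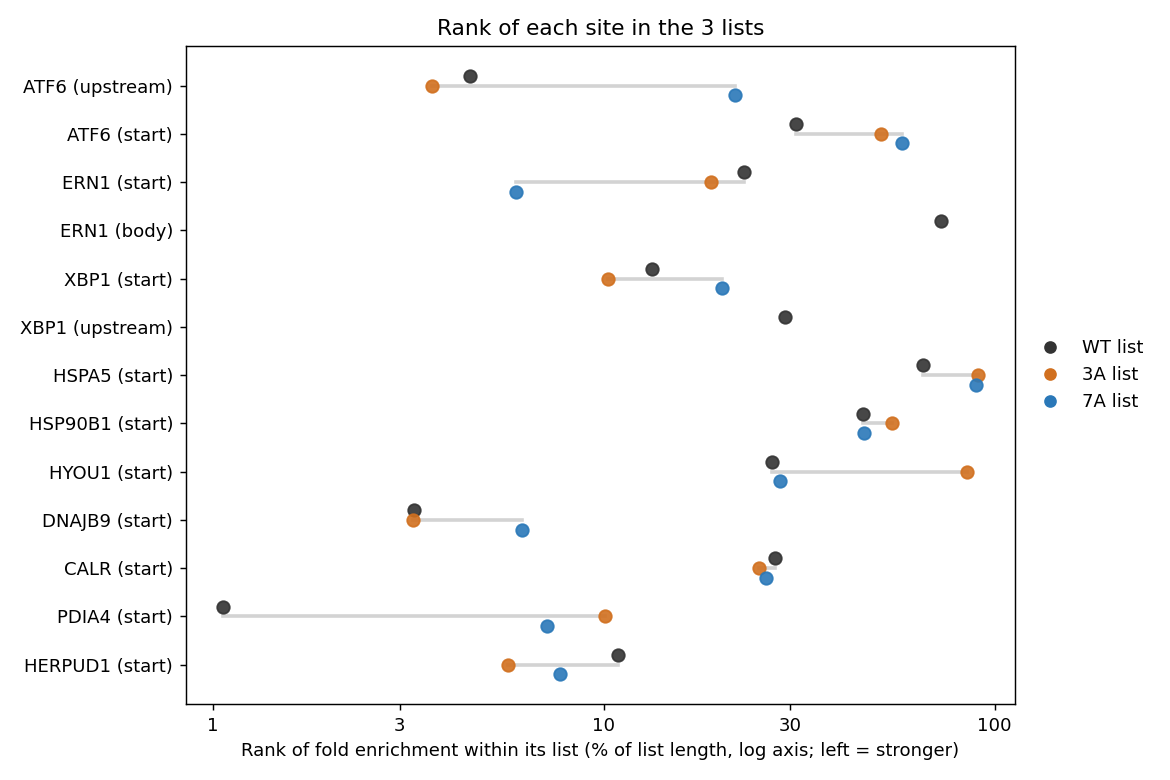
Rank of fold enrichment of the member sites, without the second CALR site, as a percent of the list's length (log axis, left is stronger) in the WT, 3A and 7A lists. PDIA4 leads in WT at 1.06%, HSPA5 lies at or past 65.5% in every list, and HYOU1 spans 26.9% to 85.1%.

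Among the sensors, ATF6 had 2 separate sites in all lists. The stronger, upstream one (WT chr1:161765109-161765622, 514 bp) had its summit 924 bp before the ATF6 start, inside the divergent noncoding gene ATF6-DT. Its rank was 4.54% in WT (fold 43.1), 3.64% in 3A (fold 39.0) and 21.7% in 7A (fold 18.3). By −log10 q it ranked 7.20%, 13.4% and 30.6%, and its background coverage in 3A was 3.0. It was thus among the strongest member sites in WT and 3A by fold, with a lower place in 3A by −log10 q, and it stood lowest in the 7A list by both. The site over the start (WT chr1:161766058-161766643) ranked 31.0%, 51.3% and 58.0% in WT, 3A and 7A, with summits 45, 43 and 38 bp before the start. The CACGAG of the promoter window lay 36, 38 and 43 bp from these summits. The start site was the weaker of the pair in each list. Its promoter window had the lowest GC content among the members' first windows, 47.0%, against a member median of 67.3% and 62.3% over protein-coding windows.

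ERN1, the other sensor, was the only member whose start site ranked highest in the 7A list. The site was broad, 2222 bp in WT (chr17:64128890-64131111), 1852 bp in 3A and 1850 bp in 7A. Its rank was 22.9% in WT (fold 18.9), 18.8% in 3A (fold 19.4) and 5.95% in 7A (fold 33.1). Ranked by −log10 q the order was the same, at 14.7%, 8.13% and 2.97%. The summit lay 744 bp before the start in WT, and 262 and 263 bp before it in 3A and 7A, so both mutant lists placed it at nearly the same base within an overlapping peak. The second ERN1 peak, 26247 bp into the gene (chr17:64103767-64104071, 305 bp), was weak, at a WT rank of 73.0% (fold 7.27, treatment coverage 57.2 over a background of 7.0). Exons and introns were not used here. Of WT peaks ranked between 70% and 80%, 35.8% had no partner in either mutant list.

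XBP1, whose mRNA is the substrate of ERN1, had a start site of nearly equal width in all lists, 1179 bp in WT (chr22:28799848-28801026), 1179 bp in 3A and 1147 bp in 7A. Its rank was 13.3% in WT (fold 26.0), 10.2% in 3A (fold 25.8) and 20.0% in 7A (fold 19.1), and by −log10 q it was 7.29%, 8.25% and 12.9%. The summits lay 10, 18 and 18 bp before the start, and the ERSE printed above begins 52 bases before it. They were 24, 16 and 16 bp from that ERSE and 50, 42 and 42 bp from the CACGCG. No background over all genes is given here for the distance to an ERSE. The upstream XBP1 peak was the stronger of the 2 found in WT alone. It lay 1806 bp before the start (chr22:28802154-28802626, 473 bp) at a WT rank of 29.0% (fold 16.2) or 15.4% by −log10 q, with a treatment coverage of 403.7 against the WT median of 133.7. Of WT peaks ranked between 20% and 30%, 9.24% were overlapped in neither mutant list. No 3A or 7A summit fell in the XBP1 window besides that at the start.

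Among the chaperones, HSPA5, the master chaperone and a classical target of the response, had the weakest start site in each list. Its rank was 65.5% in WT (fold 8.26), 90.4% in 3A (fold 5.73) and 89.6% in 7A (fold 5.81). Treatment coverage was 92.6, 62.0 and 86, below the median of each list. The site (WT chr9:125241278-125242101, 824 bp) reached mostly upstream, towards the divergent noncoding gene HSPA5-DT, and its summits lay 41, 43 and 28 bp before the start. These are 7, 5 and 20 bp from the ERSE in the printed sequence, and the window held none of the 4 E-boxes.

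HSP90B1, the chaperone of the HSP90 family in the endoplasmic reticulum, had one of the broadest sites and a middling rank. It spanned 2328 bp in WT (chr12:103929135-103931462), 2082 bp in 3A and 2269 bp in 7A, and reached over the end of the transcribed pseudogene TTC41P. It ranked 46.1% in WT (fold 11.4), 54.7% in 3A (fold 10.3) and 46.2% in 7A (fold 11.7). By −log10 q it ranked 38.8%, 60.5% and 56.6%, so the WT and 7A lists were alike by fold only. The summit differed between lists more than at any other shared member site in 7A: 908 bp before the start in WT, 680 bp in 3A and 249 bp in 7A. Only the 7A summit fell at the canonical E-box, 1 bp from it; the WT and 3A summits were 660 and 432 bp away, in a peak that still covered it.

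HYOU1, a large relative of the HSP70 chaperones, showed the greatest spread in rank. It stood at 26.9% in WT (chr11:119056469-119057736, fold 17.0), 85.1% in 3A (fold 6.42) and 28.2% in 7A (fold 16.0). By fold the WT and 7A lists were close in rank and the 3A list stood far below both; by −log10 q the ranks were 29.4%, 81.9% and 45.9%, so the 7A list then lay between the others. The 3A peak had a treatment coverage of 69.6 over a background of 10.0. The summit was also placed differently, 176 bp after the start in WT, 241 bp before it in 3A and 179 bp before it in 7A. The 7A summit fell within the ERSE-II that begins 185 bases before the start. The values compared between lists are therefore from different bases of an overlapping peak of 1268, 1143 and 1038 bp.

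DNAJB9 had one of the strongest sites in all lists. Its rank was 3.26% in WT (chr7:108569139-108570612, fold 49.2), 3.26% in 3A (fold 40.6) and 6.17% in 7A (fold 32.6), and by −log10 q it was 9.59%, 4.95% and 5.86%. The summits lay 126, 122 and 145 bp before the start, upstream of the pair of canonical E-boxes and 53, 49 and 72 bp from the nearer of them. This site also covers the head of THAP5, a protein-coding gene on the other strand. The summit lay inside THAP5 in every list, beyond the edge at which the printed sequence begins. A peak shared by 2 divergent genes cannot be assigned to either alone.

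CALR had 2 sites, and the one over its start was the steadiest in rank. That site (WT chr19:12937385-12939567) ranked 27.4% in WT (fold 16.8), 24.9% in 3A (fold 16.8) and 26.0% in 7A (fold 16.6), with summits 243, 244 and 301 bp before the start. The overlapping CACGCG and ERSE matches lay 14 to 19 bp from the WT and 3A summits and 72 to 76 bp from the 7A summit. The start site thus differed by less than 3 points of rank between any 2 lists. The second CALR site is counted in the sums over sites given here and its values are not described.

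PDIA4 and HERPUD1 close the set with 2 strong sites. PDIA4 had rank 368 of the WT list, or 1.06% (chr7:149028122-149029295, fold 73.9), 10.0% in 3A (fold 26.0) and 7.13% in 7A (fold 30.5). Its background coverage was low in every list (3.0 in WT, 4.0 in 3A and 3.91 in 7A), and by −log10 q it ranked 10.1%, 22.2% and 26.8%. The fold rank therefore stood well above the rank by −log10 q here. Its summits agreed closely, 472, 473 and 476 bp before the start. HERPUD1 had the greatest treatment coverage of the set in WT (948.8) and in 3A (392.8). It ranked 10.9% in WT (chr16:56931445-56933310, fold 28.8), 5.69% in 3A (fold 32.8) and 7.73% in 7A (fold 29.5), and by −log10 q 3.06%, 3.39% and 4.26%. The WT summit fell on the canonical E-box 159 bases before the start, and the 3A and 7A summits lay 20 and 16 bp from it. Over all protein-coding windows that held both a canonical E-box and a WT summit, the median gap was 11 bp (n = 866 summits), and 15 and 14 bp in 3A and 7A. The 75% point of the gap was 42, 53 and 54 bp in WT, 3A and 7A. The DNAJB9 gaps of 53 bp in WT and 72 bp in 7A lay beyond it, and that of 49 bp in 3A did not.

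**Figure D3:**
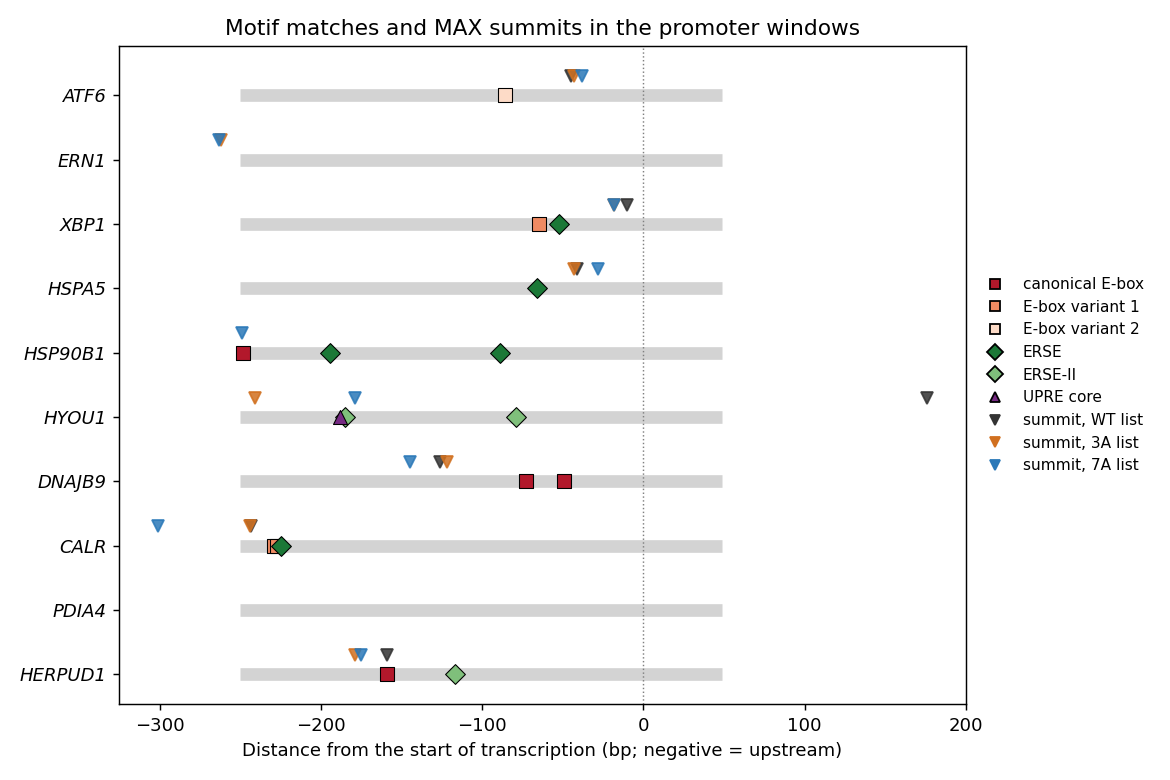
Motif matches (symbols at the first base) in the promoter windows (grey bars) and summits of the start sites (triangles) by distance in bp from the start of transcription. E-box variant 1 is CACGCG and variant 2 is CACGAG. The HERPUD1 WT summit falls on its canonical E-box and the 7A summits of HSP90B1 and HYOU1 lie 1 bp from a canonical E-box and within an ERSE-II; summits beyond the axis (ERN1 in WT, HSP90B1 in WT and 3A, PDIA4 in all lists) are not drawn.

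Position was mostly shared between the lists. At the 12 shared sites the WT and 3A summits lay within 25 bp of each other in 9 cases (68.6% of all shared WT peaks) and the WT and 7A summits in 8 (67.4%). The median distance was 6 bp for 3A and 14.5 bp for 7A, against 14 bp over all shared peaks in each. The sites with widely spaced summits, ERN1, HSP90B1 and HYOU1, are over 1000 bp wide in every list, and the CALR start had a 7A summit 58 bp from that of WT. Summits within 25 bp were thus about as frequent at these genes as elsewhere.

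Sites over the start were broad. They had a median width of 1371 bp in WT, 1183 bp in 3A and 1458 bp in 7A, against list medians of 552, 578 and 672 bp. All 10 were wider than their list's median in WT and 9 in each mutant list, with ATF6 the exception (498 bp in 3A and 507 bp in 7A). Of all peaks over a start of a protein-coding gene 88.5%, 81.4% and 78.3% were wider than that median, so the members' count is near this background. The start site was narrower than in WT at 8 genes in 3A (70.5% of shared peaks) and at 7 in 7A (57.7%).

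Rank shifts at the members were in both directions. A lower rank than in WT was found at 6 of the 12 shared sites in 3A (57.3% of all shared peaks) and at 9 in 7A (61.3%). By −log10 q these numbers were 9 (64.5%) and 10 (68.8%), and 9 sites in each mutant list kept their direction; those that turned were the upstream ATF6 site, XBP1 and HERPUD1 in 3A, and DNAJB9, the CALR start and HERPUD1 in 7A. The median shift was 4.31 points of rank in 3A and 4.49 in 7A, against 2.98 and 4.85 over all shared peaks. HYOU1 in 3A, 58.2 points lower, was the only member shift outside the range that holds the middle of all shared peaks from the 5% to the 95% point (−32.5 to 44.9). HSPA5 was 24.9 points lower in 3A and 24.1 in 7A, and the ATF6 start site 20.3 and 27.0 points lower. ERN1 moved the other way in 7A, with a rank shift of −16.9 points. These shifts lay inside that range, which for 7A ran from −31.7 to 45.9. The range takes in shared peaks of every WT rank. List length also enters a shift, since the same place is a smaller percent of the longer WT list. Counted in places, HSPA5 stood at 22684 (WT), 24671 (3A) and 22547 (7A). Its 7A place was thus close to its WT place, despite the shift in percent. HSP90B1 stood at 15964 in WT and 11626 in 7A, and HYOU1 at 9312 and 7094, so by place both were stronger in 7A. The other sites of lower rank in 7A were lower by place too. Among them, the ATF6 start site stood at 10733 (WT), 14001 (3A) and 14594 (7A). For the list as a whole, the lower-ranking share was thus near the background.

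**Figure D4:**
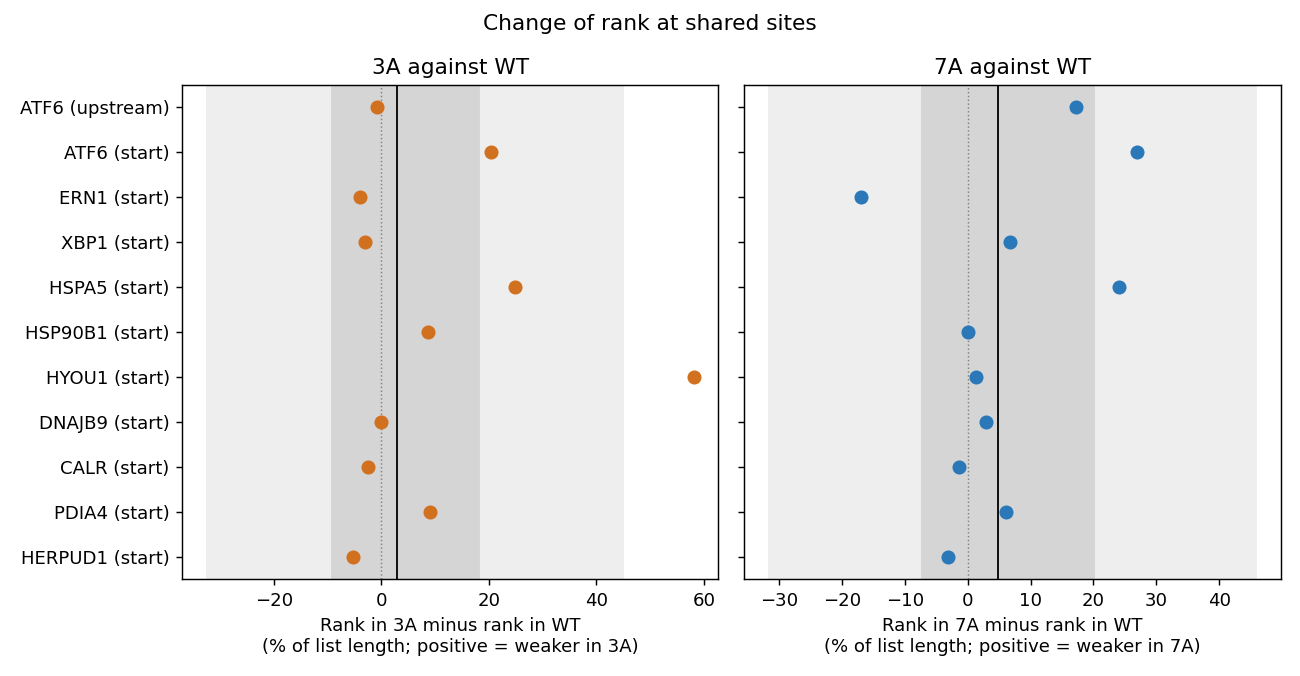
Rank in 3A (left) or 7A (right) minus rank in WT, in percent of the list's length, at the member sites found in all lists, without the second CALR site. Positive values are weaker in the mutant list by this percent, which also depends on list length. Dark grey spans 25% to 75% and light grey 5% to 95% of all WT peaks with a partner, and the black line is their median; HYOU1 in 3A, at 58.2, lies outside.

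**Figure D5:**
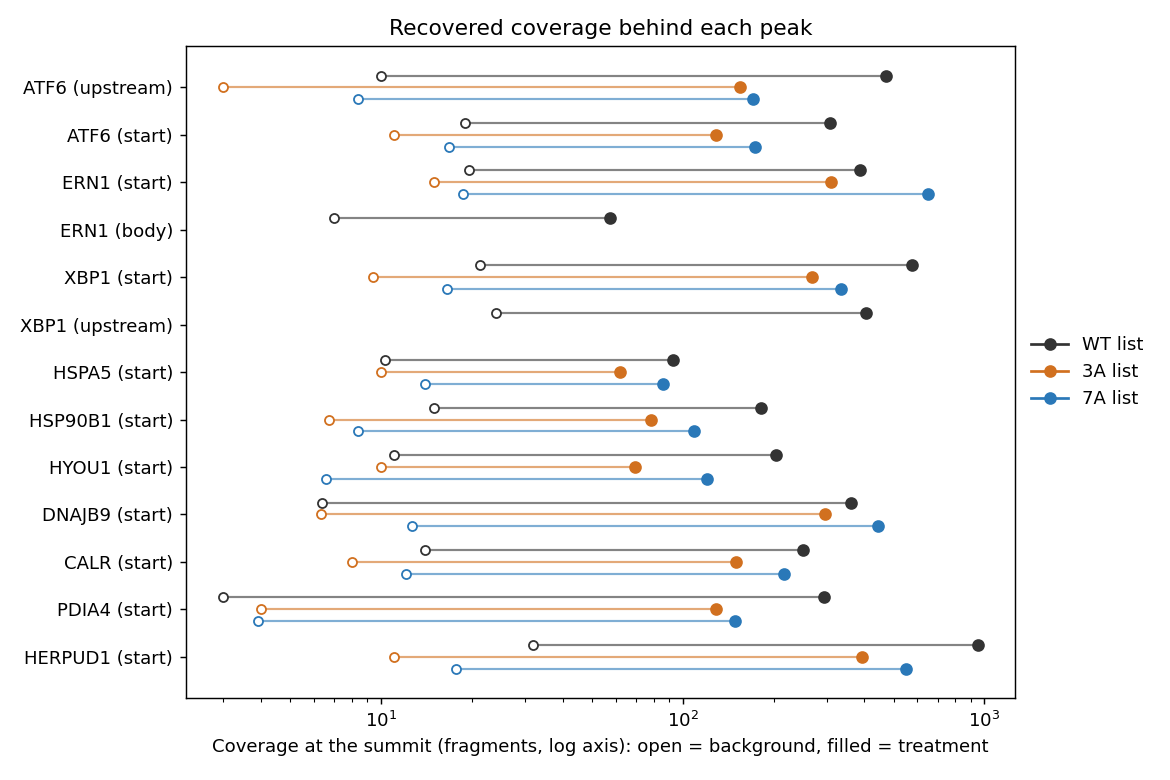
Treatment (filled) and background (open) coverage at the summit of the member peaks, without the second CALR site, on a log axis and each list's own scale, solved from the values deposited for the peak. HSPA5 has low treatment coverage in every list, PDIA4 has low background in every list, and HERPUD1 has the greatest treatment coverage in WT at 948.8.

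The window decided which peaks were counted at few members. The XBP1 upstream peak, 1806 bp from the start, lay just inside it. The nearest WT summits left out were those 4890 bp from CALR (fold 29.6, rank 10.4%) and 9329 bp from HSP90B1 (fold 12.8, rank 39.8%), and each had a peak at like distance in both mutant lists (4876 and 4885 bp from CALR, 9331 and 9336 bp from HSP90B1). At DNAJB9 the nearest further WT summit was 43514 bp away.

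Genes of the wider response mostly had a MAX peak as well. Of 41 further genes of endoplasmic reticulum stress, 40 had a WT peak by the same rule, 39 a 3A peak and 39 a 7A peak, and 39 had one in all 3 lists (background 65.7%). The median rank of their strongest peaks was 24.2%, 23.1% and 26.8% in the WT, 3A and 7A lists, beside 25.3%, 29.0% and 31.5% for all genes with a peak. The strongest in WT was at DERL2, a channel component in the removal of misfolded proteins (fold 186.2, rank 0.0231%), though that peak also lay within 2500 bp of DHX33. SELENOS, a membrane selenoprotein of the same removal pathway (fold 41.0), ATF4, the transcription factor of the PERK branch (fold 39.1), and MBTPS1, the protease that first cuts ATF6 (fold 36.4), followed. These genes were picked by the strength of their WT peak, which favours a lower rank in the other lists. DERL2 ranked 0.0147% in 3A and 1.76% in 7A, and SELENOS ranked 5.03% in WT, 7.70% in 3A and 8.08% in 7A. ATF4 ranked 5.58% in WT, 4.42% in 3A and 19.6% in 7A. MBTPS1 ranked 6.68%, 8.63% and 18.8%. PDIA3, the isomerase that works with CALR, had a peak in WT alone (fold 17.2, rank 26.4%), within 2500 bp of ELL3 and SERF2 as well, and DERL3 had none in any list. EIF2AK3, which encodes PERK, the third sensor, ranked 49.7%, 60.4% and 64.8%.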

How the data were processed

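MAX peaks in U2OS cells were read from 3 deposited lists, 1 per MYC form. Per the submitters' processing notes, the tools were MACS2, Bowtie2, Picard, SAMtools and Cutadapt, and the genome builds mm10, hg38 and hg19; no version or role is stated. Whether treatments were pooled or set against each other, pooling of replicates, the control and scaling by mouse reads are not given in the sources used here. For the antibody the sample field says MAX and the protocol FLAG; the former was followed. The lists have no header. The fold enrichment is the authors' linear ratio, and −log10 p and −log10 q are the authors' values as deposited. The deposited peak score was 10 times −log10 q, rounded down, in at least 99.6% of the peaks of each list. Positions were read as hg38, counted from 1. Columns of other samples numbered 0, and the library depth is not given in the lists.

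The 10 genes, the wider list and the motifs were chosen with earlier results of these data known. Named are all 10 members, of the wider list the 4 with the strongest WT peak and those with no peak in at least 1 list, and protein-coding genes whose window also holds a member peak; EIF2AK3 was added after its values were seen, and 1 item is not reported here. Summits were assigned within 2500 bp, overlap meant at least 1 bp, and no test was run, since there is 1 list per form. Coverage was solved from the formulas of MACS2, for 99.9% of the 7A peaks and 100% of the others; the solved treatment coverage was whole (within 0.02) for 95.6% of the 7A peaks, 3.97% in WT and 3.48% in 3A. The steps were tested on simulated data. Alternatives were windows of 1000 and 5000 bp, gene ends alone, a −log10 q of at least 10, lists of equal length, assignment by any base, rank by −log10 q, an overlap of 50% of both peaks, and summits within 100 bp. Software was matplotlib 3.10.9, SciPy 1.17.1, NumPy 2.4.6, pandas 2.3.3 and Python 3.11.15.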

Additional observations from a re-analysis of the deposited data

How the results depend on the processing

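All 10 members had a peak in WT, 3A and 7A under each of the 6 alternatives that could change this count (windows of 1000 and 5000 bp, gene ends alone, a −log10 q of at least 10, lists of equal length, assignment by any base). Member peaks ranged from 12 to 15 in WT and from 11 to 13 in each mutant list, and the WT peaks with a partner fell to 9 in each mutant list when summits had to lie within 100 bp. The median rank of the members' strongest peaks in WT was 18.1% with a window of 1000 bp, which takes in fewer sites, 16.7% with lists of equal length and 9.87% when ranked by −log10 q. In 3A it was 15.8% with lists of equal length, and in 7A 20.9% with 1000 bp and 23.0% by −log10 q. With lists of equal length, places in every list were divided by 25159, and the median in WT no longer stood ahead of that in 3A. With 1000 bp the second CALR site fell out, and the strongest peak of CALR became the one over its start. The cause of the moves by −log10 q was not tested. No replicate could be left out, since the lists hold none. No paired analysis was possible because the columns carry no replicate numbers. A site missing from a mutant list was not called there, and its coverage in that list is not known.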
